A study of Mus musculus with 4 samples.

Results

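A set of 156 cardiomyocyte nuclei carried different labels in the authors' cluster annotation, where they belonged to CM1, and in the label transferred from an earlier reference, where they were CM4. They were chosen by those labels alone: every nucleus with the deposited cell type CM1 and the transferred label CM4 was taken. The 156 CM4-like nuclei made up a small part of the 6440 CM1 nuclei and of the 8585 cardiomyocyte nuclei in the series. They were compared with the 5305 nuclei that were CM1 by both labels (CM1/CM1) and with the 652 that were CM4 by both labels (CM4/CM4). Neonatal mouse hearts were operated on at postnatal day 3, by ligation of the left anterior descending artery to produce a myocardial infarction (MI) or by a Sham procedure. In the Nrf1 knockout (KO), Nrf1fl/fl animals also carried aMHC-Cre, whose promoter drives Cre in cardiomyocytes, and the wild type (WT) controls were Nrf1fl/fl without Cre. The 4 groups, WT-MI, KO-MI, WT-Sham and KO-Sham, were 1 single-nucleus RNA library each, made from tissue below the ligation plane pooled from 4 to 6 hearts, and the study's methods place collection a day after surgery. Each animal in the 4 libraries therefore had floxed Nrf1 alleles, and a group cannot be told apart from its pool of hearts and its library. With 1 library a group there was no test of any difference, and intervals below are 95% intervals that cover counting error only.

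In the neonatal heart, cardiomyocytes can still re-enter the cell cycle after injury, and CM4 was the study's name for a cardiomyocyte population with an immature gene programme marked by Acta2, a smooth muscle actin that developing cardiomyocytes express. CM1 was the main ventricular cardiomyocyte population, into which the authors merged CM3. Nrf1, the product of the gene Nfe2l1, is a transcription factor known for inducing proteasome subunits and antioxidant enzymes under stress. Label transfer finds, for each nucleus, the most similar nuclei of a labelled reference and gives a score between 0 and 1 to each label, so a nucleus can sit in one cluster and receive the label of another. Since both labels were made from the expression of these same nuclei, their gene differences are descriptions of what the labels picked.

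The libraries held 1406 to 3328 nuclei and 4984625 to 9106522 unique molecular identifiers (UMIs, one for each captured RNA molecule). The study's methods state that the mice were genotyped from their tails on the day of collection. Nfe2l1 checks the genotype only if the counted 3′ tags lie in the deleted part, which was not given in the sources used here. In CM1/CM1 it stood at a CPM (UMIs scaled to a common total) of 44.7 in WT-MI and 57.4 in KO-MI, and at 61.3 in WT-Sham and 53.8 in KO-Sham, so the library labelled KO-MI was above the one labelled WT-MI. In the CM4-like nuclei the levels were 71.6, 51.2, 74.0 and 49.8 CPM in the same order, from only 11, 4, 5 and 11 UMIs, and sets of values without library names run in this order throughout. The strain labels run from C57BL/6 to C57BL/9 over the samples, while the protocol names one C57BL/6 background. Of the cell barcodes, 9 occurred in more than 1 library, and 0 of the CM4-like nuclei carried one of them.

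The transferred CM4 score of the 156 nuclei had a median of 0.606, with a lowest value of 0.350 and a highest of 0.907. The same nuclei kept a median CM1 score of 0.306. In CM4/CM4 the median CM4 score was 0.848 and in CM1/CM1 it was 0.00, so the CM4-like nuclei held scores for both labels. CM1 was the second-best label in 147 of the 156, CM3 in 5 and CM2 in 4, and 36 had a CM4 score under 0.5. The transferred label CM2 was held by 743 nuclei of the deposited cell type CM5 and by 0 of cell type CM2. As a second label it therefore does not point to cell type CM2. At the edge of the rule, 18 members led their second label by less than 0.05 and 11 other CM1 nuclei missed the CM4 label by less than 0.05. The closest member led by 0.00157 with a score of 0.357, and the closest nucleus outside missed by 0.00125 with a CM4 score of 0.454. Those 18 and 11 nuclei had median depths of 3065.5 and 2442 UMIs.

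The CM4-like nuclei were most frequent among CM1 nuclei of WT-MI and KO-Sham. They were 45 of 1415 CM1 nuclei in WT-MI, or 3.18% (exact Clopper-Pearson interval 2.33 to 4.23). In KO-MI they were 17 of 1308, or 1.30% (0.759 to 2.07). In WT-Sham they were 15 of 1098, or 1.37% (0.767 to 2.24), and in KO-Sham 79 of 2619, or 3.02% (2.40 to 3.75). The order therefore paired WT-MI with KO-Sham and KO-MI with WT-Sham, and inside each pair each share lay within the interval of the other. The KO minus WT difference was -1.88 percentage points after MI (-3.06 to -0.731) and 1.65 points after Sham (0.576 to 2.59). The MI minus Sham difference was 1.81 points in WT (0.592 to 3.02) and -1.72 points in KO (-2.62 to -0.725). Among nuclei with under 10% mitochondrial UMIs, the KO minus WT difference after Sham was 0.823 points (-0.161 to 1.70) and the MI minus Sham difference in KO was -0.833 points (-1.69 to 0.0658).

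Most of these nuclei lay in 1 of the 4 Seurat clusters that make up CM1. Cluster 2 held 134 of the 156, which was 9.72% of its 1379 CM1 nuclei, while clusters 0, 1 and 4 held 0.463%, 0.400% and 0.412%. Cluster 2 itself took 28.9% of CM1 nuclei in WT-MI and 10.1% in KO-MI, and 7.10% in WT-Sham and 29.0% in KO-Sham. Within cluster 2 the CM4-like share was 10.3% in WT-MI and 9.09% in KO-MI, and 12.8% in WT-Sham and 9.21% in KO-Sham, and outside cluster 2 it was 0.298%, 0.425%, 0.490% and 0.484%. All 8 differences between libraries computed within or outside cluster 2 had intervals that included 0, the difference farthest from 0 being KO minus WT after Sham within the cluster, at -3.61 points (-13.3 to 3.28). The size of cluster 2 thus moved with the share over all CM1 nuclei, while no difference in the rate of CM4 labels within it was detectable at this number of nuclei. Looking within cluster 2 was chosen after the data were seen.

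**Figure D1:**
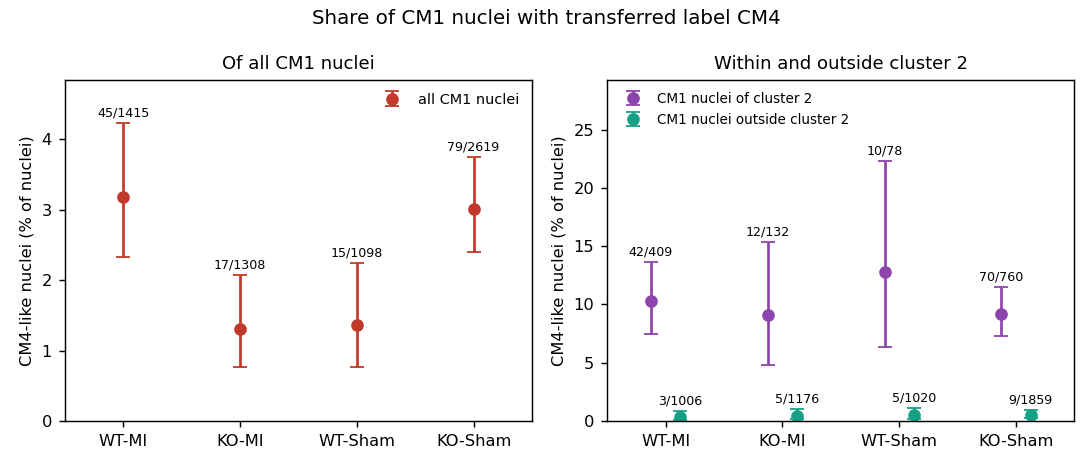
Share of CM1 nuclei that received the label CM4 (y axis, percent of nuclei) in each of the 4 libraries, over all CM1 nuclei on the left and split by Seurat cluster 2 on the right. Points are shares, bars are exact 95% binomial intervals and the numbers are CM4-like nuclei over nuclei counted. WT-MI and KO-Sham stand above the other libraries on the left, at 3.18% and 3.02%, and the 4 libraries lie between 9.09% and 12.8% within cluster 2.

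The CM4-like nuclei were deep for nuclei with a CM4 label. Their median depth was 3395 UMIs in WT-MI and 4924 in KO-MI, and 4729 in WT-Sham and 2480 in KO-Sham. CM4/CM4 nuclei had medians of 1692, 2364, 1689.5 and 1870.5 UMIs in that order, and CM1/CM1 nuclei 4104, 4038.5, 3730 and 2653. The CM4-like medians were thus above CM4/CM4 in every library, and on either side of CM1/CM1: higher in KO-MI and WT-Sham, lower in WT-MI and KO-Sham. CM1/CM1 nuclei of cluster 2 were shallower than the CM4-like nuclei in every library, at 3134, 2584.5, 2092 and 2068 UMIs. Reduced to 1000 UMIs each, the CM4-like nuclei had a median of 653.2, 658.0, 659.8 and 636.1 expected genes, CM1/CM1 had 635.2, 642.0, 650.7 and 638.0 and CM4/CM4 had 627.9, 630.6, 603.3 and 626.1. At equal depth the CM4-like medians were the highest in 3 libraries, with KO-Sham the exception.

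Mitochondrial RNA, which in a nucleus preparation comes from outside the nucleus, lay between the 2 reference populations. The median share of UMIs from the mitochondrial genome was 7.09% in WT-MI and 9.56% in KO-MI, and 7.52% in WT-Sham and 10.6% in KO-Sham. CM1/CM1 had 5.08%, 5.04%, 6.13% and 8.66%, and CM4/CM4 had 11.2%, 9.70%, 14.96% and 11.8%. The CM4-like median was above CM1/CM1 and below CM4/CM4 in each library. Ranked within their library, CM1 nuclei of the lowest quartile of mitochondrial share were CM4-like in 0.745% of cases, the next quartiles in 1.37% and 2.30%, and the highest in 5.28%. Depth showed no such order over the 4 libraries together. The share was 3.54% in the shallowest quartile, 1.68% and 1.74% in the middle and 2.73% in the deepest. By library the directions differed. From the shallowest to the deepest quartile it went from 6.2% to 0.85% in WT-MI and from 4.58% to 3.51% in KO-Sham. It went from 0.92% to 3.06% in KO-MI and from 0.73% to 2.91% in WT-Sham. The part of depth and mitochondrial share in the differences below was not tested, other than by the restricted comparisons given beside them.

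**Figure D2:**
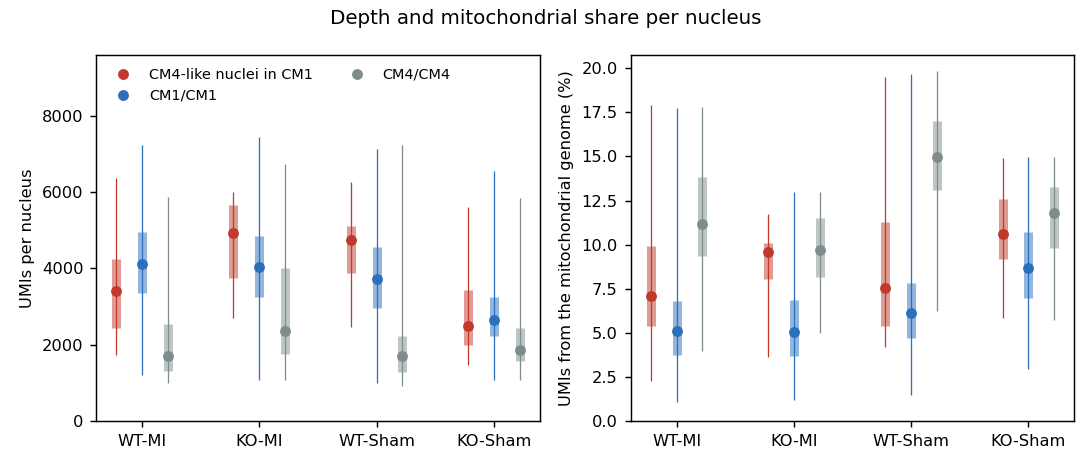
UMIs per nucleus (left) and share of UMIs from the mitochondrial genome in percent (right) in each library for CM4-like nuclei in CM1, CM1/CM1 and CM4/CM4. Points are medians over nuclei, thick bars the quartiles and thin lines the lowest and highest nucleus. The CM4-like medians lie above CM4/CM4 for UMIs and between the other populations for the mitochondrial share in all 4 libraries.

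For each gene, the UMIs summed over the 156 nuclei were set against those expected if each library's CM4-like nuclei had that library's reference level, as a log2 ratio. A gene was called when the ratio passed 1.5-fold and its interval excluded no change, among genes with at least 20 observed and expected UMIs together. Over CM1/CM1, 769 of 6651 genes were called higher (11.6%) and 367 lower (5.52%). Over CM4/CM4, 860 of 6673 genes were called higher (12.9%) and 578 lower (8.66%). The median over all genes tested was -0.03 and 0.08. With edgeR's TMM scaling the calls over CM1/CM1 were 650 higher and 577 lower, so that 53.0% of the called genes were higher in place of 67.7%. That scaling moved the median of all genes to -0.11. Over CM4/CM4, the count of lower genes was 349 without WT-MI.

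The study chose its cardiomyocyte clusters by Tnnt2 expression, so the presence of this marker here was set by that choice. Tnnt2 (chr1:135836354-135852260, cardiac troponin T) stood at 3157 CPM in WT-MI and 4246 in KO-MI, and at 4455 in WT-Sham and 5379 in KO-Sham, and all 156 nuclei held UMIs of it. Its log2 ratio was 0.13 over CM1/CM1 (0.07 to 0.19) and -0.41 over CM4/CM4 (-0.47 to -0.34). Myh6, the alpha myosin heavy chain, had ratios of 0.11 and -0.15. Neither passed 1.5-fold against either reference. Over CM1/CM1, 0 of 12 ventricular cardiomyocyte genes and 0 of 16 sarcomere and Z-disc genes were called. Of all genes tested, 11.6% were called higher and 5.52% lower.

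Acta2 (chr19:34241090-34255590), the CM4 marker, lay between the references. It stood at 364.5 CPM in WT-MI and 575.6 in KO-MI, and at 148.0 in WT-Sham and 384.6 in KO-Sham. CM1/CM1 had 210.5, 297.5, 138.7 and 258.3 CPM and CM4/CM4 had 603.0, 985.2, 419.3 and 439.9 CPM, so the CM4-like level was in between in all 4 libraries. The WT-Sham value rested on 10 UMIs and was close to CM1/CM1. Over the libraries the log2 ratio was 0.68 over CM1/CM1 (0.47 to 0.89) and -0.59 over CM4/CM4 (-0.82 to -0.37). Within cluster 2 the ratio to CM1/CM1 was 0.38 (0.14 to 0.62). Of the 8 genes on the immature cardiomyocyte list, 2 of 6 tested were called higher over CM1/CM1, beside 11.6% of all genes. Over CM4/CM4, 6 of 8 tested were called lower, beside 8.66% of all genes.

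Across the 26 gene lists, the summed level of the CM4-like nuclei lay between CM1/CM1 and CM4/CM4 in 21, and for 13 lists it did so in each of the 4 libraries. These positions were read from the levels without their intervals. For the cell cycle, epicardial, and immediate early and heat shock lists, the interval over CM4/CM4 included no change. The lists and the members were chosen with earlier results of these data known. Cytosolic ribosomal proteins had the most called genes over CM1/CM1. Their summed level was 45200, 58600, 48870 and 45710 CPM by library, against 25410, 28610, 21640 and 32070 in CM1/CM1 and 74460, 85410, 69140 and 60240 in CM4/CM4. Over CM1/CM1, 72 of 77 were called higher, beside 11.6% of all genes, with a median log2 ratio of 0.76, beside -0.03 over all genes. Over CM4/CM4, 21 of 77 were called lower with a median of -0.53, beside 8.66% of all genes.

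Energy metabolism genes followed the same order, with smaller median ratios than the ribosomal list over CM1/CM1. The nuclear-encoded respiratory chain had a median log2 ratio of 0.42 over CM1/CM1, where 8 of 81 genes were called higher (a share below the 11.6% of all genes). Over CM4/CM4 its median was -0.65 and 58 of 81 were called lower, beside 8.66% of all genes. Cox4i1, a subunit of cytochrome c oxidase, stood at 1556, 2123, 2235 and 3461 CPM by library. CM1/CM1 had 959.1, 1147, 1437 and 2765 CPM and CM4/CM4 had 2531, 3314, 4575 and 4693 CPM, so the CM4-like level was in between each time. The 13 protein-coding genes of the mitochondrial genome had medians of 0.42 and -0.28, with 0 called higher over CM1/CM1 and 2 lower than CM4/CM4. Of all genes, 11.6% and 8.66% were called in these directions. Fatty acid oxidation genes had medians of 0.22 and -0.38 and glycolysis genes 0.32 and -0.55. Fabp3, the heart fatty acid carrier, had log2 ratios of 0.41 over CM1/CM1 and -0.74 over CM4/CM4.

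Calcium handling genes, cardiac transcription factors and nuclear long RNAs ran the other way, with levels below CM1/CM1 and above CM4/CM4. Slc8a1 (chr17:81373105-81738377), the sodium-calcium exchanger, stood at 17660 CPM in WT-MI and 12730 in KO-MI, and at 8140 in WT-Sham and 7655 in KO-Sham. CM1/CM1 had 20840, 19070, 11640 and 10160 CPM and CM4/CM4 had 5999, 6371, 3471 and 5228 CPM. Of 9 calcium handling genes, 0 were called lower than CM1/CM1 (median -0.31), beside 5.52% of all genes. Over CM4/CM4, 5 of the 9 were called higher (median 0.61), beside 12.9% of all genes. Of the cardiac transcription factors, 0 of 11 tested were called over CM1/CM1 (median -0.27), beside 11.6% of all genes higher and 5.52% lower. Over CM4/CM4, 4 of 10 were called higher and 1 lower (median 0.51), beside 12.9% and 8.66% of all genes. Malat1 (chr19:5795690-5802672), a long RNA retained in the nucleus, took 94700, 71460, 67710 and 72340 CPM, against 123700, 120500, 99560 and 91260 in CM1/CM1 and 47570, 36330, 21540 and 48430 in CM4/CM4. It had a log2 ratio of -0.44 over CM1/CM1 and 0.87 over CM4/CM4.

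**Figure D3:**
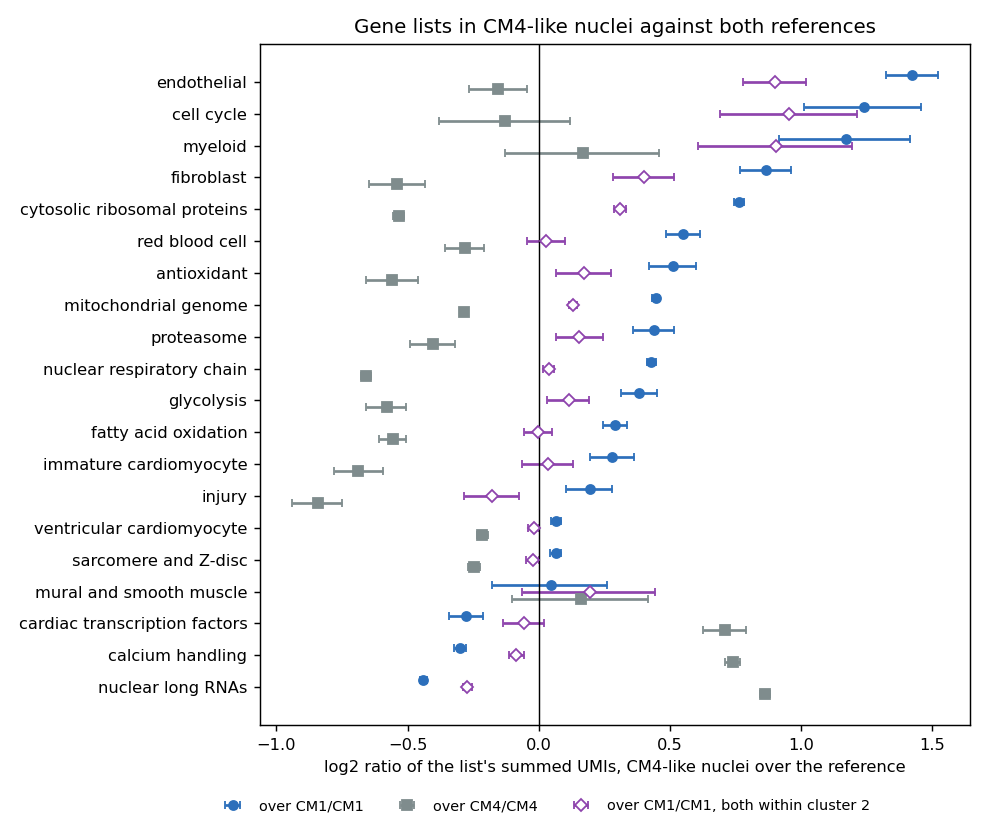
Log2 ratio of the summed UMIs of each gene list in CM4-like nuclei over CM1/CM1 (circles), over CM4/CM4 (squares) and over CM1/CM1 with both populations restricted to cluster 2 (open diamonds), for lists with at least 3 genes tested against each reference. Bars are 95% intervals for counting error. Most lists sit on opposite sides of 0 for the 2 references, and the ribosomal list goes from 0.76 to 0.31 within cluster 2.

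Much of the separation from CM1/CM1 was shared by the other CM1 nuclei of cluster 2. With both populations restricted to that cluster, 278 of 5931 genes were called higher (4.69%) and 143 lower (2.41%). The ribosomal list had a summed log2 ratio of 0.31 (0.29 to 0.33) in place of 0.76, with 1 of 77 genes called higher, and the nuclear respiratory chain 0.04 in place of 0.43, with 0 of 81 called. The mitochondrial genome was at 0.13 in place of 0.45, and the red blood cell list at 0.03 in place of 0.55. Endothelial genes were at 0.90 (0.78 to 1.02) in place of 1.42, myeloid genes at 0.91 (0.61 to 1.19) in place of 1.17 and cell cycle genes at 0.96 (0.69 to 1.21) in place of 1.24. The injury list was at -0.18 (-0.28 to -0.08), the opposite sign of its 0.19 over all CM1/CM1 nuclei.

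Markers of other heart cell types were higher in the CM4-like nuclei than in CM1/CM1, and these levels stand beside every gene difference above. The endothelial list, 10 genes of which none was at 0 UMIs over the 156 nuclei and 3 were at 0 in KO-MI, had a summed level of 1217 CPM in WT-MI and 1407 in KO-MI, and of 2990 in WT-Sham and 1792 in KO-Sham. CM1/CM1 had 444.5 to 828.6 CPM and CM4/CM4 1810 to 1951, so the WT-Sham members exceeded both references. Of 9 endothelial genes tested, 8 were called higher over CM1/CM1 (median 1.65), and 1 was called lower than CM4/CM4 (median -0.37). Fabp4, a fatty acid carrier of endothelial cells and fat, had a log2 ratio of 1.38 over CM1/CM1 (1.27 to 1.496) and of -0.07 over CM4/CM4 (-0.20 to 0.06). Kdr, the main VEGF receptor, had a ratio of 2.36 over CM1/CM1 (1.75 to 2.93), from 29 UMIs. Of the 895 endothelial UMIs, 698 were of Fabp4, and 37.9% of the 895 came from 10 nuclei.

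Fibroblast and myeloid markers were higher than in CM1/CM1 as well. The fibroblast list stood at 1419, 1676, 2057 and 1814 CPM by library, with 903.4 to 1050 CPM in CM1/CM1 and 2308 to 2731 in CM4/CM4. Of 6 fibroblast genes tested 5 were called higher over CM1/CM1 (median 0.87), among them the collagen gene Col3a1 at 0.93. Beside the counts in this paragraph, 11.6% of all genes tested were called higher over CM1/CM1. The myeloid list stood at 384.0, 204.6, 414.4 and 171.9 CPM, with 69.29 to 191.6 in CM1/CM1 and 132.2 to 428.0 in CM4/CM4. Over all 11 myeloid genes the summed log2 ratio was 1.17 (0.91 to 1.42) over CM1/CM1. Of the 11, 4 were tested and all 4 were called higher over CM1/CM1 (median 1.26), a selection that leans upward like the endothelial one. The pan-leukocyte gene Ptprc had only 2 UMIs in the 156 nuclei. Haemoglobin and other red blood cell genes had a median of 0.53 over CM1/CM1, with 1 of 4 called. Their summed level in WT-Sham was below CM1/CM1, at -0.37 (-0.62 to -0.13). Of their UMIs in the 156 nuclei, 41.4% came from 10 nuclei. Without the 3 nuclei that held the most, the haemoglobin gene Hbb-bs was at -0.03 over CM1/CM1 (-0.14 to 0.08). Mural and smooth muscle genes had a median of -0.20, with 1 of 3 called higher, so the higher levels did not extend to every other cell type.

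Single nuclei differed in which of these markers they held. Against the 95th percentile of CM1/CM1 of the same library, 39 of 156 nuclei were high for the endothelial list (interval 18.4% to 32.6%), 40 for the fibroblast list, 29 for the red blood cell list, 24 for the myeloid list and 13 for the mural list. In CM4/CM4, 46.6% were high for the endothelial list and 44.6% for the red blood cell list. Of the CM4-like nuclei, 47 were high for none of the 5 lists, 78 for 1, 26 for 2 and 5 for 3 or more. The 47 comprised 18 of the WT-MI nuclei, 4 of KO-MI, 24 of KO-Sham and 1 of the 15 of WT-Sham. Their median depth was 3094 UMIs and that of the other 109 was 3189, so both kinds had similar depth. When both populations were restricted to nuclei high for none of the lists, the ribosomal ratio over CM1/CM1 was 0.71. The nuclear respiratory chain was at 0.51 and the cell cycle list at 1.37. The endothelial list, itself used for this restriction, was at 0.70. The study's methods state that doublets were removed with Scrublet. Since each of the 156 nuclei held at least 1 UMI of the endothelial, fibroblast, mural, myeloid, epicardial or glial lists, nuclei free of all of them could not be compared, and the part of free RNA or of 2 nuclei under 1 barcode was not tested.

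Among genes with at least 50 observed plus expected UMIs and the same direction in at least 2 libraries that had enough UMIs, the 10 highest over CM1/CM1 were Lgals3, Cav1, Gng11, Klf2, Fcer1g, Cdh5, Ftl1, Tyrobp, Spp1 and Myl12b, at log2 ratios from 2.004 to 1.43. Cav1 (chr6:17306335-17341452), the coat protein of caveolae, stood at 71.6 CPM in WT-MI and 102.3 in KO-MI, and at 236.8 in WT-Sham and 153.8 in KO-Sham. CM1/CM1 had 24.3, 31.3, 27.2 and 44.2 CPM, below the CM4-like level in each library. This gave a log2 ratio of 1.96 over CM1/CM1 (1.57 to 2.31) and 0.43 over CM4/CM4 (-0.00 to 0.85). Klf2, a transcription factor induced by blood flow, and Cdh5, which encodes VE-cadherin, are genes of endothelial cells, with ratios of 1.71 and 1.65. Gng11, a G protein gamma subunit, was at 1.76.

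Several of the 10 are genes of macrophages or other myeloid cells. Lgals3 (chr14:47367751-47386160), which encodes galectin-3, stood at 156.2 CPM in WT-MI and 115.1 in KO-MI, and at 133.2 in WT-Sham and 4.52 in KO-Sham. CM1/CM1 had 41.6, 34.0, 7.38 and 5.34 CPM, so the 3 libraries other than KO-Sham were above it. Its 43 UMIs came from 21 nuclei, 48.8% of them from 3 nuclei. Without those 3 nuclei the log2 ratio was 1.09 (0.40 to 1.71) in place of 2.004 (1.51 to 2.46). Fcer1g and Tyrobp, signalling adaptors of myeloid cells, were at 1.69 and 1.51. Spp1 (chr5:104435118-104441050), which encodes osteopontin, stood at 384.0 CPM in WT-MI and 908.1 in KO-MI, with 0 UMIs in WT-Sham and 2 in KO-Sham. Over CM1/CM1 the log2 ratio was 1.44 (1.17 to 1.69), and 0.57 without the 3 nuclei that held the most. Without WT-MI it was 2.09.

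Ftl1, the ferritin light chain, which stores iron, had the most UMIs of the 10. It stood at 637.9 CPM in WT-MI and 383.7 in KO-MI, and at 1524 in WT-Sham and 402.7 in KO-Sham, against 184.4 to 213.0 CPM in CM1/CM1. Against its references the log2 ratio was 1.63 over CM1/CM1 (1.46 to 1.80) and 1.21 within cluster 2 (1.01 to 1.41). Over CM4/CM4 it was 0.20 (0.00 to 0.39), and -0.09 without WT-Sham. Ferritin has pseudogenes with near-identical sequence, so its count is uncertain to the extent that reads were shared.

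By the same rule the 10 genes lowest against CM1/CM1 were Fgf14, Irs1, B3galt1, Vps54, 2610307P16Rik, Mir100hg, Capn15, Fbn2, Adcy9 and Mapk10. Fgf14 (chr14:123977907-124677127), a modulator of sodium channels, stood at 45.6 CPM in WT-MI and 115.1 in KO-MI, and at 74.0 in WT-Sham and 113.1 in KO-Sham. CM1/CM1 had 184.9, 142.9, 328.7 and 272.3 CPM, above the CM4-like level in each library. Its log2 ratio was -1.41 over CM1/CM1 (-1.86 to -0.99) and 0.94 over CM4/CM4 (0.36 to 1.495). Irs1, an adaptor of the insulin receptor, had a ratio of -1.21 over CM1/CM1 and of 0.02 over CM4/CM4. Fbn2, the extracellular matrix protein fibrillin-2, was at -1.01 and 0.17. Adcy9, an adenylyl cyclase, was at -1.001 over CM1/CM1, and at -1.79 without KO-Sham.

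Over CM4/CM4 the highest genes by that rule were Uty, Rian, Gramd1b, Esrrb, Angpt1, Lrrtm3, Ppfia1, Gm13269, Akap8 and Osbpl3. Lrrtm3, a synaptic adhesion gene whose span overlaps that of Ctnna3 in the annotation, had the most UMIs of these, and reads of the overlap cannot be told apart. It stood at 878.7 CPM in WT-MI and 677.9 in KO-MI, and at 828.8 in WT-Sham and 656.0 in KO-Sham, with 801.0 to 895.2 CPM in CM1/CM1 and 153.1, 88.7, 107.9 and 432.1 in CM4/CM4. Its log2 ratio was 1.55 over CM4/CM4 (1.33 to 1.76), and 2.69 without KO-Sham. Over CM1/CM1 it was -0.17. Rian was at 1.79, at 0.76 without WT-MI and at 0.85 without the 3 nuclei that held the most, and Gm13269 was at 1.47, and at 2.38 without KO-Sham. Esrrb, a nuclear receptor related to the oestrogen receptors, had ratios of 1.74 over CM4/CM4 (1.06 without WT-MI, 2.45 without KO-Sham) and -0.17 over CM1/CM1. Angpt1, a ligand of the endothelial receptor Tek, had 1.72 and -0.35, and 1.04 and -1.04 without the 3 nuclei that held the most.

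The genes lowest against CM4/CM4 by that rule were Gpc6, Myl4, Xirp2, Fbxl7, Clu, Eif6, AY036118, Nppa, Ebf1 and Mcrip2. Nppa (chr4:148000722-148002079), which encodes atrial natriuretic peptide, stood at 1868 CPM in WT-MI and 3581 in KO-MI, and at 236.8 in WT-Sham and 303.1 in KO-Sham. CM4/CM4 had 5568, 7438, 447.0 and 443.9 CPM, above the CM4-like level in each library, and CM1/CM1 had 1957, 2367, 149.2 and 262.3. Its log2 ratio was -1.27 over CM4/CM4 (-1.39 to -1.15) and 0.23 over CM1/CM1 (0.12 to 0.34). Without the 3 nuclei that held the most Nppa, the ratios were -1.47 and 0.02, the latter with an interval that included no change (-0.11 to 0.14). Xirp2, a protein of the intercalated disc, and Clu, the secreted chaperone clusterin, were at -1.75 and -1.38 over CM4/CM4, and Xirp2 was at -1.05 without WT-MI. Gpc6, a cell surface proteoglycan, was the lowest of these at -2.19 (-3.28 to -1.28), from 10 UMIs in the CM4-like nuclei, and at -2.87 without the 3 nuclei that held the most. Myl7, the atrial regulatory light chain, was lower still at -4.33, from 3 UMIs in the CM4-like nuclei, but 204 UMIs of its CM4/CM4 level came from KO-MI and the rule left it out. Myl4, the atrial myosin light chain, was at -1.83, but 180 of the UMIs behind its CM4/CM4 level came from the library labelled KO-MI, where it stood at 591.1 CPM and the other libraries at 37.5 to 46.2. Without KO-MI the Myl4 ratio was -0.14.

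**Figure D4:**
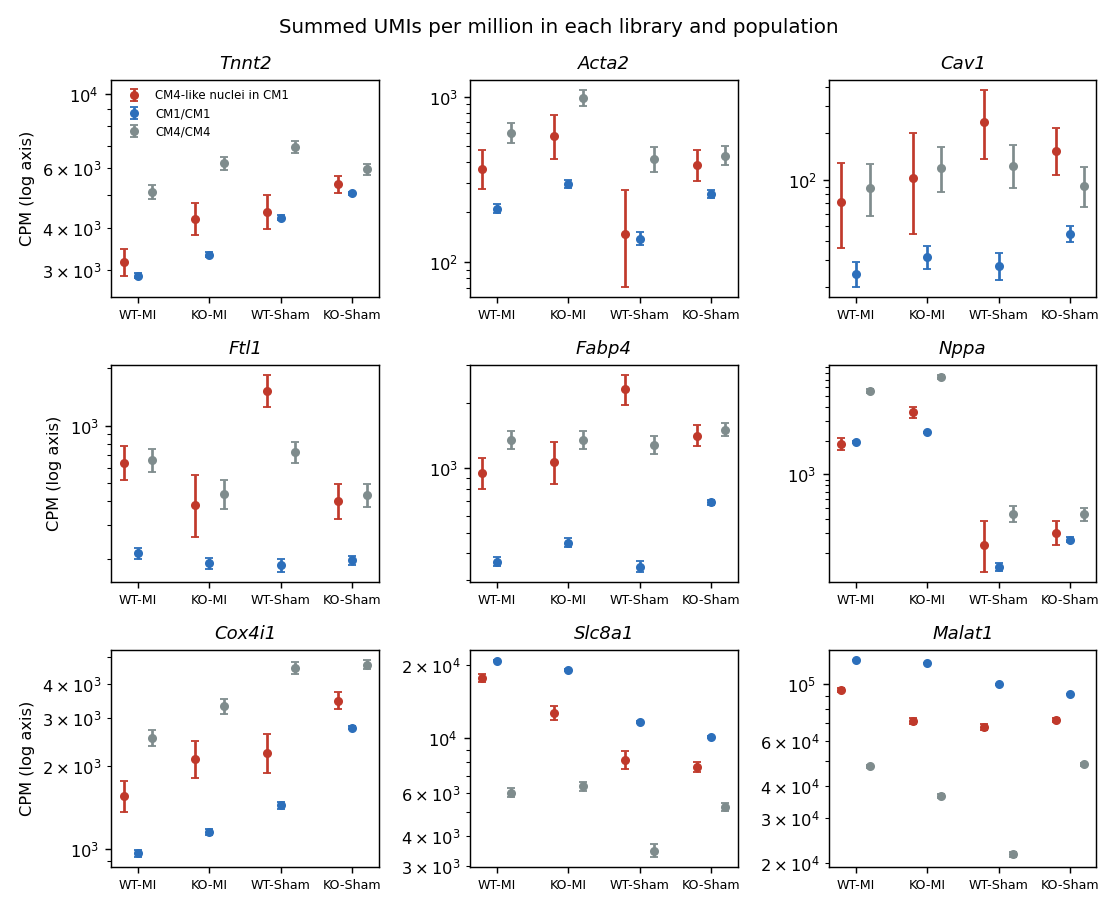
Summed UMIs as CPM (log axis) of 9 genes in each library for CM4-like nuclei in CM1, CM1/CM1 and CM4/CM4. Points are levels and bars are exact 95% Poisson intervals. Acta2, Cox4i1, Slc8a1 and Malat1 lie between the reference populations in all 4 libraries, Cav1 and Fabp4 lie above CM1/CM1 in all 4, and Ftl1 and Fabp4 are highest in the WT-Sham CM4-like nuclei, at 1524 and 2324 CPM.

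Among Nfe2l1, Nfe2l2 and the named Nrf1 targets, Hmox1 and Psmb3 were called higher over CM1/CM1. Nfe2l1 itself had a log2 ratio of 0.18 over CM1/CM1 (-0.39 to 0.69) and Nfe2l2, which encodes the related factor Nrf2, of -0.26 (-0.84 to 0.27). Hmox1 (chr8:75093621-75100589), which encodes the haem-degrading enzyme heme oxygenase-1, had 29 UMIs where 3.78 were expected from CM1/CM1, a log2 ratio of 2.94 (2.31 to 3.52). It had 8 UMIs in WT-MI and 0 in KO-MI, and 17 in WT-Sham and 4 in KO-Sham, where WT-Sham with 251.6 CPM was far above the CM1/CM1 level of 4.26. Those UMIs came from 15 nuclei, 58.6% of them from 3. Without these 3 nuclei the ratio was 1.68 (0.70 to 2.53), without WT-Sham it was 1.78 and without WT-MI 3.57. Over CM4/CM4 it was 1.04, -0.23 without the 3 nuclei, -0.19 without WT-Sham and 2.37 without WT-MI.

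Proteasome subunits lay between the references. Of 32 tested, 9 were called higher over CM1/CM1 (median 0.49), beside 11.6% of all genes. Of 33 tested, 8 were called lower than CM4/CM4 (median -0.46), beside 8.66% of all genes. Psmb3, a subunit of the catalytic core, stood at 130.2, 102.3, 222.0 and 131.2 CPM by library, with 77.1, 78.5, 66.1 and 103.5 in CM1/CM1. Its log2 ratio over CM1/CM1 was 0.67 (0.31 to 1.01). Psmd1, of the regulatory cap, was at 0.08 (-0.38 to 0.50), Psma1 at 0.16 and Psma5 at 0.46, none of them called. The 16 antioxidant genes had 5 of 14 called higher over CM1/CM1 (median 0.53), beside the same 11.6% of all genes. Against CM4/CM4, 1 of 14 was called higher and 5 lower (median -0.54), beside 12.9% and 8.66% of all genes. The superoxide dismutases Sod1 and Sod2 had ratios of 0.47 and 0.24 over CM1/CM1, and catalase (Cat) had -0.12 (-0.82 to 0.50).

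Cell cycle transcripts were scarce but higher than in CM1/CM1. The 15 genes summed to 351.5 CPM in WT-MI and 345.3 in KO-MI, and to 236.8 in WT-Sham and 375.5 in KO-Sham. CM1/CM1 had 113.7, 134.2, 117.1 and 182.8 CPM, below the CM4-like level in each library, and CM4/CM4 had 387.4, 358.0, 499.4 and 341.3. Over all 15 genes the summed log2 ratio was 1.24 over CM1/CM1 (1.01 to 1.46) and -0.13 over CM4/CM4 (-0.38 to 0.12). Only 5 of the 15 had enough observed plus expected UMIs to test over CM1/CM1, and all 5 were called higher (median 1.17). The whole list had 76.3 UMIs expected from CM1/CM1, so a gene more easily reached this limit when its observed UMIs were high. The count of 5 and its median therefore lean upward. Over CM4/CM4, 0 of 7 were called (median -0.16). Cdk1, the kinase that drives entry into mitosis, had 29 UMIs where 8.35 were expected from CM1/CM1, a log2 ratio of 1.80 (1.19 to 2.35). Mki67, a marker of cycling cells, and Ccnb2, a mitotic cyclin, had 10 and 9 UMIs and were not called.

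The ratios followed the length of the genes. Over CM1/CM1 the median log2 ratio of genes was 0.60 for a genomic span of 2 to 5 kb, -0.03 for 20 to 50 kb and -0.39 from 500 kb upward. Over CM4/CM4 the medians ran from -0.48 through 0.06 to 0.60 over the same spans. Genes from 100 kb upward gave 30.4%, 26.4%, 29.3% and 26.4% of the UMIs from outside the mitochondrial genome by library. They gave 36.4%, 34.6%, 36.8% and 31.5% in CM1/CM1, and 20.4%, 16.9%, 15.7% and 20.3% in CM4/CM4. In CM1/CM1 of cluster 2 they gave 32.4%, 27.3%, 29.3% and 26.5%, close to the CM4-like shares. Counting used a pre-mRNA reference, in which intron reads count, so longer genes offer more sites in unspliced RNA, and the part of this in the gene differences was not tested.

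**Figure D5:**
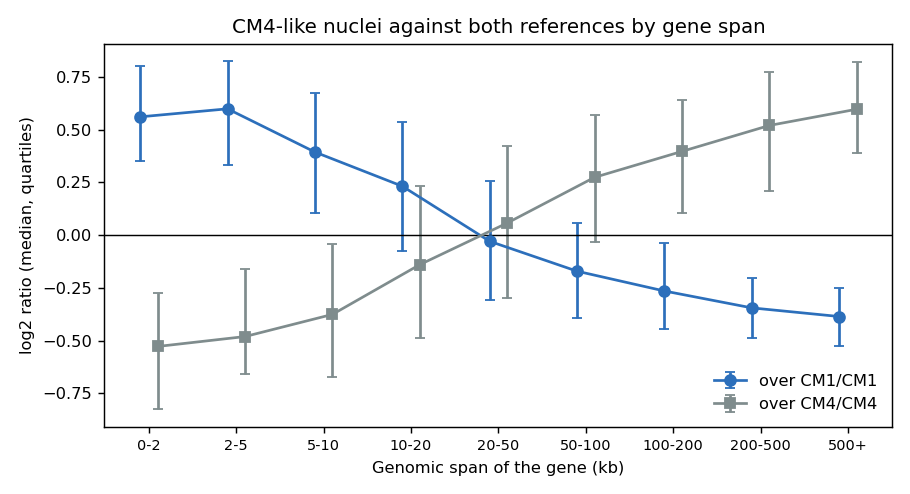
Median log2 ratio of the genes in bins of genomic span (x axis, kb) for CM4-like nuclei over CM1/CM1 (circles) and over CM4/CM4 (squares). Bars are the quartiles over genes. The 2 lines cross near 20 to 50 kb and run in opposite directions, from 0.56 to -0.39 over CM1/CM1 and from -0.53 to 0.60 over CM4/CM4.

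Between libraries, injury genes were higher in the CM4-like nuclei of the MI libraries. The injury list summed to 3176 CPM in WT-MI and 4297 in KO-MI, and to 636.4 in WT-Sham and 968.2 in KO-Sham. On the log2 scale the ratio of MI to Sham was 2.32 in WT (1.87 to 2.80) and 2.15 in KO (1.90 to 2.40). In CM1/CM1 those ratios were 2.36 and 1.81, and in CM4/CM4 they were 1.97 and 2.39. Across genes, 123 of 1947 were called higher (6.32%) and 147 lower (7.55%) in WT-MI over WT-Sham, and 164 of 2509 higher (6.54%) and 130 lower (5.18%) in KO-MI over KO-Sham. Nppb, which encodes brain natriuretic peptide, stood at 846.1 and 1317 CPM in the MI libraries and at 59.2 and 90.5 in the Sham libraries, log2 ratios of 3.84 and 3.86. Ankrd1, a stress-responsive protein of the sarcomere, had ratios of 3.79 and 3.12. Markers of other cell types differed in the same contrasts. For WT-MI over WT-Sham the endothelial list was at -1.30 (-1.59 to -1.002), the fibroblast list at -0.54 (-0.85 to -0.22) and the red blood cell list at 1.16 (0.90 to 1.43), and for KO-MI over KO-Sham they were at -0.35, -0.11 and -0.56. Their part in the MI to Sham differences was not tested.

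Other genes differed between single libraries. Meg3, an imprinted long RNA, had 114 UMIs in WT-MI and 2 in WT-Sham, a log2 ratio of 4.65, but 47.9% of its UMIs over the 4 libraries came from 3 nuclei. S100a9, an alarmin of neutrophils, had 56 UMIs in WT-MI and 3 in KO-MI, a log2 ratio of -3.25 for KO-MI over WT-MI (-5.57 to -1.63). Xist, the RNA that coats the inactive X chromosome, stood at 774.5 CPM in WT-MI and 1369 in KO-MI, and at 88.8 in WT-Sham and 456.9 in KO-Sham. This order of libraries held in CM1/CM1, at 1011, 1602, 169.0 and 787.5 CPM. The sample labels used here do not hold the sex of the pooled hearts. Its part in the Xist order was not tested and cannot be told apart from the group.

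The study genotyped the mice from their tails, and the Nfe2l1 counts here did not check that genotype. Between the libraries labelled KO and WT, the nuclear respiratory chain list was higher in KO after both procedures. It stood at 31960 CPM in WT-MI and 45970 in KO-MI, and at 42030 in WT-Sham and 64370 in KO-Sham. KO over WT, the log2 ratio was 0.52 after MI (0.46 to 0.59) and 0.61 after Sham (0.56 to 0.67). In CM1/CM1 the ratios were 0.23 and 0.82, and in CM4/CM4 they were 0.45 and -0.14. Across genes, 128 of 2033 were called higher (6.30%) and 89 lower (4.38%) after MI, and 94 of 2462 higher (3.82%) and 105 lower (4.26%) after Sham. The endothelial list had a KO to WT ratio of -0.74 after Sham (-0.99 to -0.49), where the 15 WT-Sham nuclei held the highest endothelial level, and of 0.21 after MI (-0.14 to 0.56).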

How the data were processed

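Nuclei from the 4 libraries were counted by the authors with Cell Ranger against a pre-mRNA reference of mm10/GRCm38, whose annotation release is not given in the sources used here, and the deposited matrix holds UMI counts of 22574 genes in 8585 cardiomyocyte nuclei with 537 to 2499 detected genes. The labels name version 2 of the 10x 3′ kit and the methods another. The authors removed doublets with Scrublet and transferred labels with Seurat 3. The deposited metadata hold UMI counts, detected genes, the percent of mitochondrial UMIs (percent.mt) and transfer scores, each a fraction from 0 to 1, which the authors computed for each nucleus. Another 3 value columns were not used.

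UMIs were summed per library and label. Ratios are observed over expected UMIs with a 95% interval that combines exact Poisson limits of the CM4-like nuclei with a normal limit of the reference. Expected UMIs were summed over libraries, so that each library was its own reference. Between libraries, intervals were exact conditional binomial. An observed count of 0 was replaced by a floor of 3 UMIs. Named genes were the 10 highest and 10 lowest against each reference whose interval excluded no change, with at least 50 observed plus expected UMIs and the same direction in the libraries with enough UMIs, the gene with the most UMIs in each list, the study's genes and all list members. The leading gene of 1 list is not reported here. Between libraries they were the 5 highest and 5 lowest. Gene positions are of GENCODE M21, which matched 97.9% of symbols once. Scripts ran in Python 3.11.15 with scipy 1.17.1 and R 4.3.3, with edgeR 4.0.16 and DESeq2 1.42.0 for scaling factors only, and were tested on simulated data. Alternatives were scaling, filters, weighting, depth, percent.mt, transfer score and leaving out a library. The members and lists were chosen with earlier results of these data known. Intervals and floors cover counting error only.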

Additional observations from a re-analysis of the deposited data

Results flagged for a closer look

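Some KO to WT differences of the CM4-like nuclei had opposite directions after MI and after Sham, each with a counting interval that excluded no difference. The share of CM1 nuclei that were CM4-like differed by -1.88 percentage points after MI and by 1.65 points after Sham. The red blood cell list had a log2 ratio of -0.72 after MI and of 1.003 after Sham. Of its 918 UMIs in KO-Sham, 72.8% came from 10 of the 79 nuclei, and of its 140 in WT-Sham 82.9% came from 10 of the 15. In CM1/CM1 that list had -0.93 and -0.49, and in CM4/CM4 -0.95 and -1.87. The nuclear long RNA list, which is mostly Malat1, had -0.39 after MI and 0.10 after Sham, and CM4/CM4 had -0.38 and 1.18. The cytosolic ribosomal list had 0.37 after MI and -0.10 after Sham, and CM4/CM4 had 0.20 and -0.20. CM1/CM1 had -0.03 and -0.12 for the long RNAs and 0.17 and 0.57 for the ribosomal list, so the opposite directions of these lists also appeared in CM4/CM4 and not in CM1/CM1. With 1 library in each group, none of these differences between MI and Sham was tested.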

How the results depend on the processing

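Most values stayed near the reported value. Of the named gene values, 1922 were labelled the same, within the interval of the reported value, and 269 moved outside it. Another 21, whose reported interval excluded no change, changed sign. For lists over a reference these numbers were 466, 250 and 12. Sign changes of values whose reported interval included no change were counted as the same or as moved. Over CM1/CM1, genes called lower numbered 577 with TMM scaling, 562 with DESeq2 size factors, 212 from 50 UMIs upward, 202 within the quartiles of UMIs of the CM4-like nuclei and 241 under 10% mitochondrial UMIs. Genes called higher numbered 421 from 50 UMIs and 347 within the UMI quartiles. The endothelial list was at 1.17 with nuclei weighted equally, 1.03 within the UMI quartiles and 1.57 under 10% mitochondrial UMIs. The ribosomal list was at 0.69 (TMM), 0.70 (DESeq2), 0.80 (CPM without mitochondrial UMIs), 0.65 (equal weights), 0.80 (libraries pooled), 0.57 (UMI quartiles) and 0.88 (mitochondrial share). The ventricular list was at -0.0060 and -0.0022 and the sarcomere list at -0.011 and -0.0066 with TMM and DESeq2, so their small ratios changed sign, and the epicardial list was at -0.082 within the UMI quartiles.

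The restriction to cluster 2, chosen after the data were seen, gave 278 higher and 143 lower genes over CM1/CM1, with the endothelial list at 0.90, the ribosomal at 0.31, the ventricular at -0.019, the injury at -0.18, the sarcomere at -0.024 and the fatty acid oxidation list at -0.0023. Some single genes changed sign there although their interval over all CM1/CM1 nuclei excluded no change. They were Sod2 at -0.053, Nppa at -0.27, Nppb at -0.10, Lrrtm3 at 0.011 and Fbxl7 at -0.039. Tnni1 at -0.013, Hbb-bs at -0.026, Esrrg at 0.059 and Fabp3 at -0.026 did so too. Sign changes of genes whose interval included no change, such as Angpt1 at 0.41, are not listed. The restriction to nuclei not high for another cell type, also chosen after the data were seen, gave 349 higher and 167 lower genes. The ribosomal list was then at 0.71 and the endothelial list, itself used for this restriction, at 0.70.

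Over CM4/CM4, genes called higher numbered 572 within the UMI quartiles, 542 under 10% mitochondrial UMIs and 409 in nuclei not high for another cell type, where 308 were lower. The ribosomal list was at -0.56 (TMM), -0.57 (no mitochondrial UMIs), -0.48 (equal weights), -0.56 (pooled), -0.63 (UMI quartiles) and -0.69 (nuclei not high). The endothelial list was at -0.62 within the UMI quartiles and 0.20 in nuclei not high, and the red blood cell list at 0.34 within the quartiles. Gng11 was at -0.40 within the quartiles and -0.10 in nuclei not high. Hbb-bs was at 0.45 there, 0.016 under 10% mitochondrial UMIs and 0.012 in nuclei not high. In those nuclei Hmox1 was at -1.03, Ebf1 at 0.62 and Col3a1 at 0.019. The filter for nuclei not high used the endothelial, fibroblast and red blood cell lists, among others. The endothelial list, Col3a1 and Hbb-bs were thus compared there in nuclei chosen by those same genes. Leaving out each library in turn, Spp1 ranged from -0.018 (without KO-MI) to 1.60 (without WT-MI), Hmox1 from -0.19 (without WT-Sham) to 2.37 (without WT-MI), Ftl1 from -0.087 (without WT-Sham) to 0.33 (without KO-Sham) and Hbb-bs from -0.90 (without KO-Sham) to 0.046 (without WT-Sham). The cause of these shifts was not tested.

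Leaving out each library in turn gave 606 to 698 higher and 316 to 339 lower genes over CM1/CM1, and 676 to 900 higher and 349 to 624 lower over CM4/CM4. The endothelial list ranged from 1.19 to 1.73 and from -0.32 to 0.013, where 0.013 was without WT-MI, and the ribosomal list from 0.71 to 0.96 and from -0.62 to -0.46.

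The share differences were -3.15 (KO minus WT after MI) and 3.26 (MI minus Sham in WT) points within the UMI quartiles. Within cluster 2 they were -3.61 (KO minus WT after Sham), -2.55 (MI minus Sham in WT) and -0.120 points (MI minus Sham in KO). Outside cluster 2 they were 0.127 and -0.00607 points (KO minus WT after MI and Sham) and -0.192 and -0.0590 points (MI minus Sham in WT and KO). With nuclei weighted equally the nuclear respiratory chain was at 0.45 and 0.70 (KO over WT after MI and Sham) and at -0.30 and -0.55 (MI over Sham in WT and KO).

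Nuclei without a UMI of another cell type could not be compared, since 0 of the CM4-like nuclei and 23 of CM1/CM1 were left. No paired analysis was possible because each group was 1 library. That design limits every comparison between groups to a description of pools of hearts, and small counts limit genes with few UMIs, for which intervals are wide. Since the labels were made from the same expression values, differences between populations could not be tested on independent data.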

Other observations

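The CM4-like nuclei had a counterpart on the other side of the annotation. In the CM4 cluster, 154 nuclei received the label CM1, and they numbered 26 and 10 in the WT and KO libraries after MI, and 28 and 90 after Sham. These nuclei were not compared further.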
